A study of Mus musculus with 9 samples.

Results

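Fasting changes the liver transcriptome, but so does the time of day, and a fasted liver sample alone cannot tell the change from the hour at which it was taken. To separate genes that left the daily range from genes that stayed within it, the liver library of fasted mice was set against 6 liver libraries taken around the circadian cycle in constant darkness (DD). A gene was taken when its value in the fasted library was at least 2-fold above the highest or at least 2-fold below the lowest of the 6 DD libraries, with at least 100 counts in 1 of these 7 libraries. Of 11593 genes with that many counts, among 20409 genes in all, 325 met the rule. 135 of them (1.16%) lay above the DD range and 190 (1.64%) lay below it, which together made 2.8%. Without scaling to depth and composition the numbers were 90 and 335. The rule used these very values, so the levels of the 325 genes are given as a description, with no test.

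All livers came from male C57BL/6J mice, an inbred laboratory strain, and the livers of a condition were pooled into 1 library of polyA+ RNA. The fasted mice had lived in a cycle of 12 h of light and 12 h of dark (LD) and went without food for 16 h, starting at ZT9 and ending at ZT1 (ZT, zeitgeber time, counted in hours from lights on). The refed mice were likewise from LD and had food for 20 h after such a fast, and the ad libitum mice from LD had free access to food. The DD mice spent 1 week in LD and then 6 weeks in DD, and were taken every 4 h of circadian time (CT, counted by the animals' own day), from CT1 until CT21. The sources do not state how the DD mice were fed, the ages, the number of livers in a pool or the hour at which the ad libitum mice were taken. Fasting, lighting regime and cohort therefore cannot be told apart between the fasted library and the 6 DD libraries, and CT1 matches the end of the fast by its label only. With 1 library per condition there is no replicate check, and an exact permutation test of 1 library against 6 could not give a one-sided p below 0.143.

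During a fast the liver stops storing fuel and begins to export it. Falling insulin and rising glucagon and glucocorticoids favour glucose output, and fatty acids released by adipose tissue activate the nuclear receptor PPARα, which drives genes of fatty acid oxidation and ketone body production. Synthesis of fatty acids and sterols is driven by the transcription factors SREBP1c and SREBP2, which are active in the fed liver and when cell sterol is low.

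Values are given in CPM, read counts relative to a TMM-scaled library total, a normalization that assumes most genes do not differ. The fasted library held 44314333 counts over genes, and the 6 DD libraries held between 43485652 (CT9) and 58179178 (CT21). Hepatocyte markers, the plasma protein genes Alb, Apoa1 and Ttr among them, took 9.45% of counts in the fasted library and between 7.87% and 10.4% in DD, and 0 of 8 met the rule. Acute phase genes, which the liver makes in response to inflammation, took 6.85% of counts in the fasted library, 28.8% in the ad libitum library and between 4.65% and 19.0% in DD. The serum amyloid A gene Saa1 had 760 CPM in the fasted library, against 9043 CPM at CT1, 11425 CPM at CT17 and 24.5 to 151 CPM in the other 4 DD libraries. A wide DD range hides a gene from the rule. Without CT1 and CT17, 184 genes lay above and 300 below, and 7 acute phase genes were then above. Without CT17 alone, 2 of them were.

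The distances were unequal. In log2 units beyond the nearest DD library, the median was 1.5 for the genes above, up to 6.23, and -1.32 for the genes below. Counting error alone left the 95% interval of the distance wholly past 2-fold for 117 of the 135 genes above and for 106 of the 190 below, where 70 genes had under 100 counts in the fasted library. Of the 135 genes above, 20 (14.8%) had under 100 counts in every DD library and met the count minimum through the fasted library alone. At 4-fold, 37 genes (0.319%) lay above and 38 (0.328%) below. Just inside the rule were Hsd17b11 and Sec23a above, at 1.01 and 1.02, and Tmem120b and Rec8 below, both at -1.0. Just outside were Mtnr1a at 1.00 and Rtf2 at 1.00 above, and Ralgps1 and Ttc39c at -0.99 below. The median gene of the 11593 with enough counts stood -0.11 from its DD median in log2 units in the fasted library. A small general offset is therefore contained in these values.

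**Figure D1:**
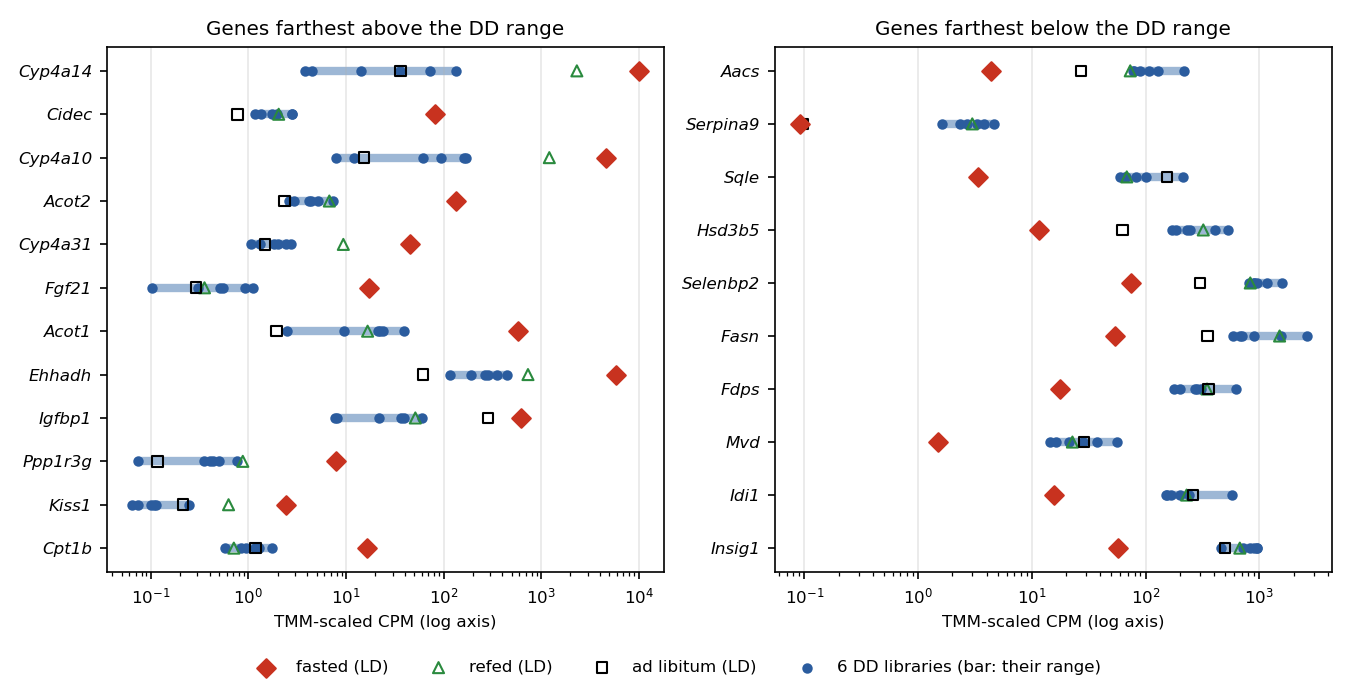
TMM-scaled CPM on a log axis of the 12 genes farthest above (left) and of 10 of the 12 farthest below (right) the DD range, 1 line per gene, with the fasted library as a red diamond, the refed as a green triangle, the ad libitum as a black square and the 6 DD libraries as blue points over a bar that spans their range. No fasted value touches its bar. The refed value lies 2-fold or more above the bar for Cyp4a14, Cyp4a10, Cyp4a31 and Kiss1, and the ad libitum value for Igfbp1, while the ad libitum value of Serpina9 lies as low as the fasted one.

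Of the 12 genes farthest above the DD range, 4 were of ω-oxidation and peroxisomal β-oxidation, classical targets of PPARα. Cyp4a14, a fatty acid ω-hydroxylase (NM_007822, chr4:115486200-115496158, GRCm38.p6), had 10057 CPM in the fasted library, against 3.77, 25.2 and 134 CPM as the lowest, median and highest DD values, 74.8-fold beyond the highest (CT9). Its neighbour Cyp4a10 had 4599 CPM in the fasted library and 7.91, 78.2 and 168 CPM in DD. Cyp4a31 had 45.4 CPM in the fasted library and 1.06, 1.92 and 2.73 CPM in DD. The fasted library stood clear of every DD library for these genes, which lie in 1 cluster with Cyp4a32 (62.8 CPM in the fasted library, 12.9 to 24.9 CPM in DD) on chromosome 4. Reads of such close paralogs may have been shared by the authors' counting, and this was not tested. Ehhadh, the bifunctional enzyme of peroxisomal β-oxidation, had 5843 CPM in the fasted library, against 116, 275 and 447 CPM in DD. In all, 10 of the 24 listed peroxisomal and microsomal PPARα targets were 2-fold above and 20 were above by any distance, a distance that 19.5% of all genes reached. The listed gene below the range was Nudt7, a peroxisomal hydrolase of coenzyme A, with 166 CPM in the fasted library and 457, 692 and 778 CPM in DD.

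Mitochondrial genes of fatty acid oxidation lay above the range by smaller distances. Of 21 listed, 8 were 2-fold above, 17 were above by any distance and 0 were below, and the median of the list was 1.15 in log2 units over the DD median. Without scaling 5 were 2-fold above. The carnitine transporter Slc22a5 was the farthest of these 21, with 197 CPM in the fasted library, against 21.9, 30.8 and 36.5 CPM in DD. Pdk4, the kinase that shuts off pyruvate dehydrogenase and so spares glucose, had 71.4 CPM in the fasted library and 1.96, 6.16 and 20.7 CPM in DD. Its DD values themselves spread widely, from CT5 to CT21, and all stayed below the fasted one. Acadm, the medium-chain acyl-CoA dehydrogenase, and Hadhb, a subunit of the trifunctional protein, stood 1.71 and 1.58 beyond in log2 units. The liver form of carnitine palmitoyltransferase 1, Cpt1a, which controls fatty acid entry into mitochondria, did not meet the rule: it had 753 CPM in the fasted library and 240, 307 and 464 CPM in DD. The muscle form, Cpt1b, which was on none of the lists, met it and lay farther than Slc22a5. Cpt1b had 16.4 CPM in the fasted library (714 counts) and 0.570, 1.06 and 1.76 CPM in DD (31 to 85 counts). Exons of Cpt1b overlap those of another gene model on the same strand, so its counts may include reads of both.

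**Figure D2:**
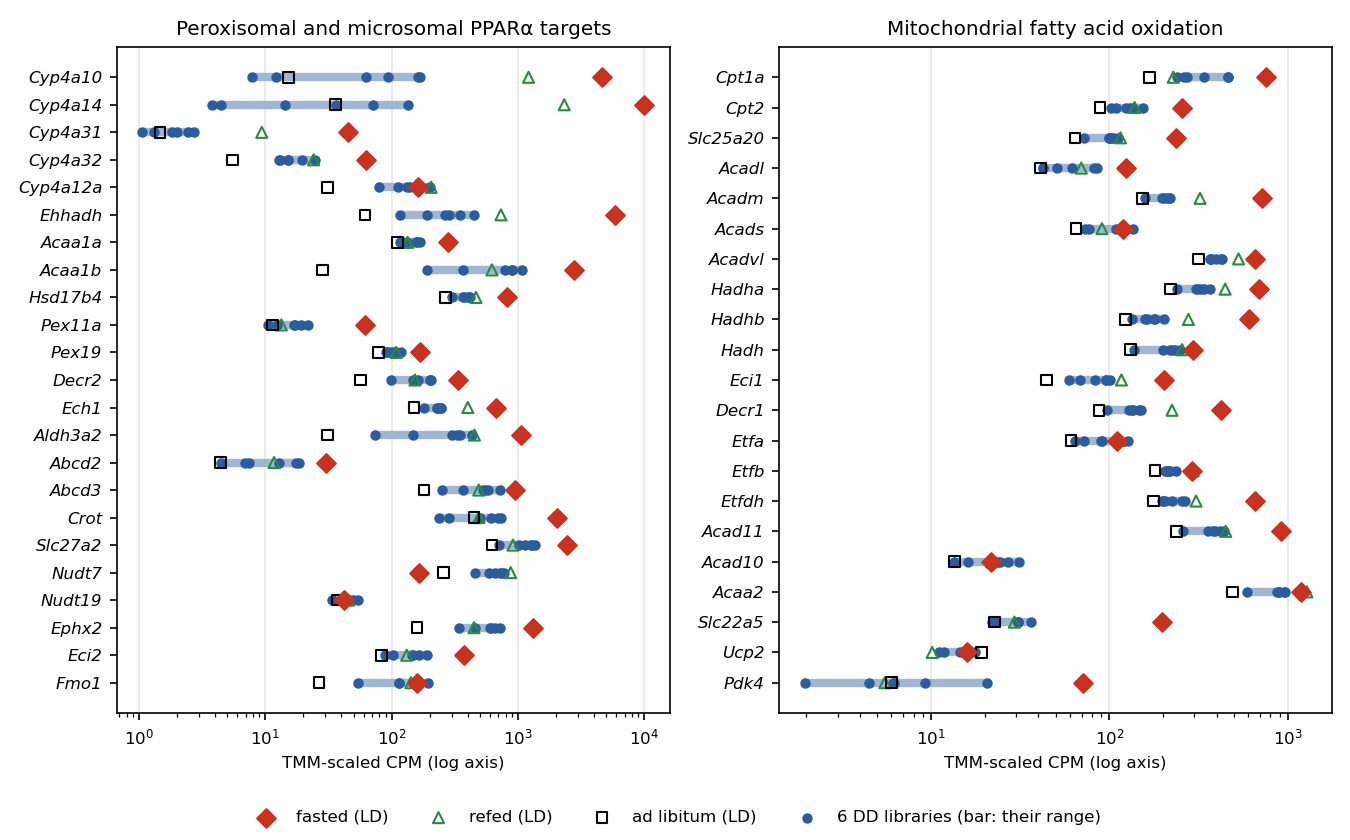
TMM-scaled CPM on a log axis for the listed peroxisomal and microsomal PPARα targets (left, 23 genes) and mitochondrial fatty acid oxidation genes (right, 21 genes) with enough counts. The red diamond is the fasted library, the green triangle the refed, the black square the ad libitum and the blue points the 6 DD libraries over their range. The fasted value lies right of the bar for 19 and 17 genes, and Nudt7 is the gene left of it.

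Acyl-CoA thioesterases, which release free fatty acids from coenzyme A, followed. Acot2, of the mitochondrial matrix, had 134 CPM in the fasted library, against 2.59, 4.28 and 7.36 CPM in DD. Its cytosolic neighbour on chromosome 12, Acot1, had 574 CPM in the fasted library and 2.46, 21.9 and 39.8 CPM in DD. Reads of these paralogs may have been shared by the authors' counting as well, and this was not tested. The peroxisomal Acot3 and Acot8 stood 1.57 and 1.12 beyond in log2 units, and Acot11 was below, with 3.58 CPM in the fasted library and 11.0, 15.3 and 17.8 CPM in DD. The exons of Acot11 overlap those of Fam151a on the other strand, a gene that was also below, and use of strand in the counting is not given in the sources used here.

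Of 8 genes of ketone body production and export 2 were above, and 6 were above by any distance, against 19.5% of all genes. Slc16a1, a carrier of ketone bodies and lactate, had 333 CPM in the fasted library and 56.9, 115 and 156 CPM in DD.

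Among genes of fatty acid uptake and lipid droplets, 10 of 28 were 2-fold above, against 1.16% of all genes. By any distance 20 of the 28 were above, 3 below and 5 inside. Cidec, a lipid droplet protein that enlarges droplets, was the farthest, with 82.2 CPM in the fasted library and 1.17, 1.85 and 2.81 CPM in DD. Plin5, which ties droplets to mitochondria, had 211 CPM in the fasted library, against 31.9, 45.9 and 51.5 CPM in DD. G0s2, an inhibitor of adipose triglyceride lipase, had 754 CPM in the fasted library, against 45.4, 85.3 and 184 CPM in DD. Mfsd2a, a transporter of lysophospholipids with docosahexaenoic acid, had 120 CPM in the fasted library. Its DD values were 0.433, 3.89 and 17.7 CPM, lowest at CT21 and highest at CT9, and the fasted value was 6.77-fold beyond the highest. Pnpla3, a lipase-like gene of the fed liver, was below, with 0.413 CPM in the fasted library (18 counts) and 0.937, 1.72 and 6.09 CPM in DD.

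Of 23 genes for factors secreted by the liver, 3 were 2-fold above and 1 was 2-fold below, against 1.16% and 1.64% of all genes. By any distance 7 were above, 7 below and 9 inside, where 19.5% and 32.2% of all genes were above and below. Fgf21, a hormone of fasting, had 17.2 CPM in the fasted library (748 counts), against 0.103, 0.525 and 1.10 CPM in DD (5 to 60 counts), 15.6-fold beyond the highest, with a counting interval of 3.58 to 4.37 in log2 units. Igfbp1, which binds insulin-like growth factors and is repressed by insulin, had 625 CPM in the fasted library and 7.75, 29.0 and 59.5 CPM in DD. The ad libitum library was high for it as well, at 286 CPM. Angptl4, an inhibitor of lipoprotein lipase, had 283 CPM in the fasted library and 35.2, 46.9 and 74.2 CPM in DD. Its relative Angptl8, a food-induced factor that the study went on to follow, was on the other side: it had 4.38 CPM in the fasted library, against 29.8, 76.3 and 193 CPM in DD, 6.80-fold beyond the lowest (CT1). The refed and ad libitum libraries had 54.2 and 45.6 CPM of Angptl8, inside the DD range. The study chose Angptl8 from these same libraries by its change on fasting, its return on refeeding and its DD rhythm. These values are therefore not independent of that choice. Angptl8 (NM_001080940, chr9:21835510-21837347) lies in an intron of Dock6 on the opposite strand. Dock6 was below too, with 7.0 CPM in the fasted library and 15.1 to 23.2 CPM in DD, and whether reads of one were counted for the other was not tested.

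Fgf21 above and Angptl8 below both hold TGATGNAAT upstream of their starts, the letters of an amino acid response element. The share of genes with these letters was near that of all genes on both sides, 1 of 107 windows above (0.935%) and 2 of 147 below (1.36%). Of the windows that reach from 250 bases before to 50 bases after a RefSeq start (GRCm38.p6), which were at hand for 9341 genes with enough counts, 0.567% contain them on either strand, and Nat8f6 was the other gene below with them. The match begins 140 bases before the start of Fgf21 and 130 bases before that of Angptl8. The stretches are shown because these secreted factors lay on opposite sides of the range, 5′ to 3′ on the strand of the gene, with the match or its reverse complement in capitals. A match of letters is a description and not a binding site.
Fgf21, chr7:45615597-45615655, minus strand: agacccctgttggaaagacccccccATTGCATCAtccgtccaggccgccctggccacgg
Angptl8, chr9:21835355-21835413, plus strand: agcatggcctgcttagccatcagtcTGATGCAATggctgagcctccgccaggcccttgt

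Of 20 genes of glucose uptake, glycolysis and glycogen 2 were 2-fold above and 2 below, against 1.16% and 1.64% of all genes. By any distance 4 of them were above, 8 below and 8 inside. Of 16 genes of gluconeogenesis 3 were 2-fold above, and by any distance 10 were above, 1 below and 5 inside. Pklr, the liver pyruvate kinase, had 24.9 CPM in the fasted library and 55.5, 200 and 355 CPM in DD. On the other side, G6pc, the glucose-6-phosphatase that releases glucose, had 1462 CPM in the fasted library and 74.0, 227 and 307 CPM in DD. Gk, which brings glycerol into gluconeogenesis, and Got1, an aspartate aminotransferase, stood 1.84 and 1.17 above in log2 units. Pck1, another hallmark gene of gluconeogenesis, did not meet the rule, with 4377 CPM in the fasted library and a highest DD value of 2259 CPM at CT9. Ppp1r3g is a glycogen-targeting subunit of protein phosphatase 1. It had 7.85 CPM in the fasted library (342 counts), against 0.0735, 0.420 and 0.756 CPM in DD (4 to 35 counts). Txnip, which restrains glucose uptake, stood 1.09 above in log2 units.

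Of 29 genes of amino acid breakdown and the urea cycle, 4 were 2-fold above and 0 were 2-fold below, against 1.16% and 1.64% of all genes. By any distance 12 were above, 4 below and 13 inside. The median of the list was 0.04 in log2 units from the DD median. Tdo2, which opens the ring of tryptophan, had 3627 CPM in the fasted library, against 613, 1189 and 1279 CPM in DD. Cth (cystathionine γ-lyase), Oat (ornithine aminotransferase) and Aass (lysine breakdown) stood 1.35, 1.32 and 1.13 beyond in log2 units. Of 18 amino acid transport genes 2 were 2-fold above, the mitochondrial carriers Slc25a47 and Slc25a22, at 1.33 and 1.07. By any distance 7 of the 18 were above, 5 below and 6 inside. Of 20 genes of the insulin, IGF and growth hormone axis 2 were 2-fold above, against 1.16% of all genes. Of 18 glucocorticoid targets 3 were 2-fold above, and of 15 genes of the ATF4 stress response 3. These lists share genes: Cdkn1a is counted for both ATF4 and glucocorticoids, and Igfbp1, Angptl4 and Fgf21 are also among the secreted factors. By any distance 6 of the 15 ATF4 genes were above and 4 below, against 19.5% and 32.2% of all genes. Of the insulin, IGF and growth hormone genes 5 were above by any distance and 8 below, and of the glucocorticoid targets 7 and 1. The median of the insulin, IGF and growth hormone list was -0.27 in log2 units from the DD median. Lepr, the leptin receptor, had 45.5 CPM in the fasted library and 3.45, 4.69 and 7.79 CPM in DD. The glucocorticoid target Sgk1, a kinase, had 77.1 CPM in the fasted library and 13.2, 21.9 and 23.6 CPM in DD. Atf5, a stress-induced transcription factor, had 254 CPM in the fasted library and 40.4, 59.8 and 101 CPM in DD. Exons of Atf5 overlap those of Nup62 and Il4i1 on the other strand. Cdkn1a, the cell cycle inhibitor p21, had 9.64 CPM in the fasted library and 0.664, 1.35 and 2.87 CPM in DD. The ad libitum library was as high as the fasted one for Cdkn1a, at 12.7 CPM. Of the bile acid genes 3 of 23 were above: Abcb4, the phosphatidylcholine exporter of bile, at 1.37, the organic anion carrier Slco1a4 at 1.28 and Cyp8b1, which makes the cholic acid branch, at 1.04. By any distance 7 of the 23 were above, 3 below and 13 inside.

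Sterol synthesis was the most complete group below the range. Of the 21 enzymes from acetyl-CoA to cholesterol, 16 were 2-fold below the lowest DD library, 18 were below by any distance (a distance that 32.2% of all genes reached) and 0 were 2-fold above. The median of the list was -2.50 in log2 units under the DD median. Sqle (squalene epoxidase), a rate-limiting step, had 3.40 CPM in the fasted library, against 59.2, 74.8 and 212 CPM in DD, 17.4-fold beyond the lowest. Fdps (farnesyl diphosphate synthase) had 17.6 CPM in the fasted library and 178, 278 and 618 CPM in DD. Mvd, which makes isopentenyl diphosphate, had 1.49 CPM in the fasted library (65 counts) and 14.5, 24.7 and 56.6 CPM in DD. Idi1, which turns isopentenyl into dimethylallyl diphosphate, had 15.7 CPM in the fasted library and 152, 184 and 580 CPM in DD. All 4 had their highest DD value at CT1, the time whose label matches the end of the fast. Hmgcs1 and Ebp were below by under 2-fold, at -0.81 and -0.38. Tm7sf2 and Hsd17b7 lay inside the DD range and Ggps1, of a side branch, lay 0.16 above it. Fdps and Idi1 overlap exons of other gene models, on the same strand and the opposite strand in that order.

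The regulators of sterol content were below in part. Insig1, which retains SREBP in the endoplasmic reticulum and is itself an SREBP target, had 57.8 CPM in the fasted library and 463, 864 and 956 CPM in DD. Its paralog Insig2 was on the other side, with 1406 CPM in the fasted library, against 60.5, 147 and 290 CPM in DD, 4.84-fold beyond the highest. Srebf1, the gene of SREBP1, had 18 CPM in the fasted library and 133, 255 and 511 CPM in DD, and exons of Rai1 on the other strand overlap it. Stard4, a sterol carrier, stood -2.35 beyond in log2 units. Srebf2, the gene of SREBP2, was below by -0.68, with 15.2 CPM in the fasted library and 24.3, 32.0 and 43.0 CPM in DD. Of the 16 listed genes 7 were 2-fold below and 1 was 2-fold above. Cell number and RNA per cell cannot be told apart in such pooled tissue.

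**Figure D3:**
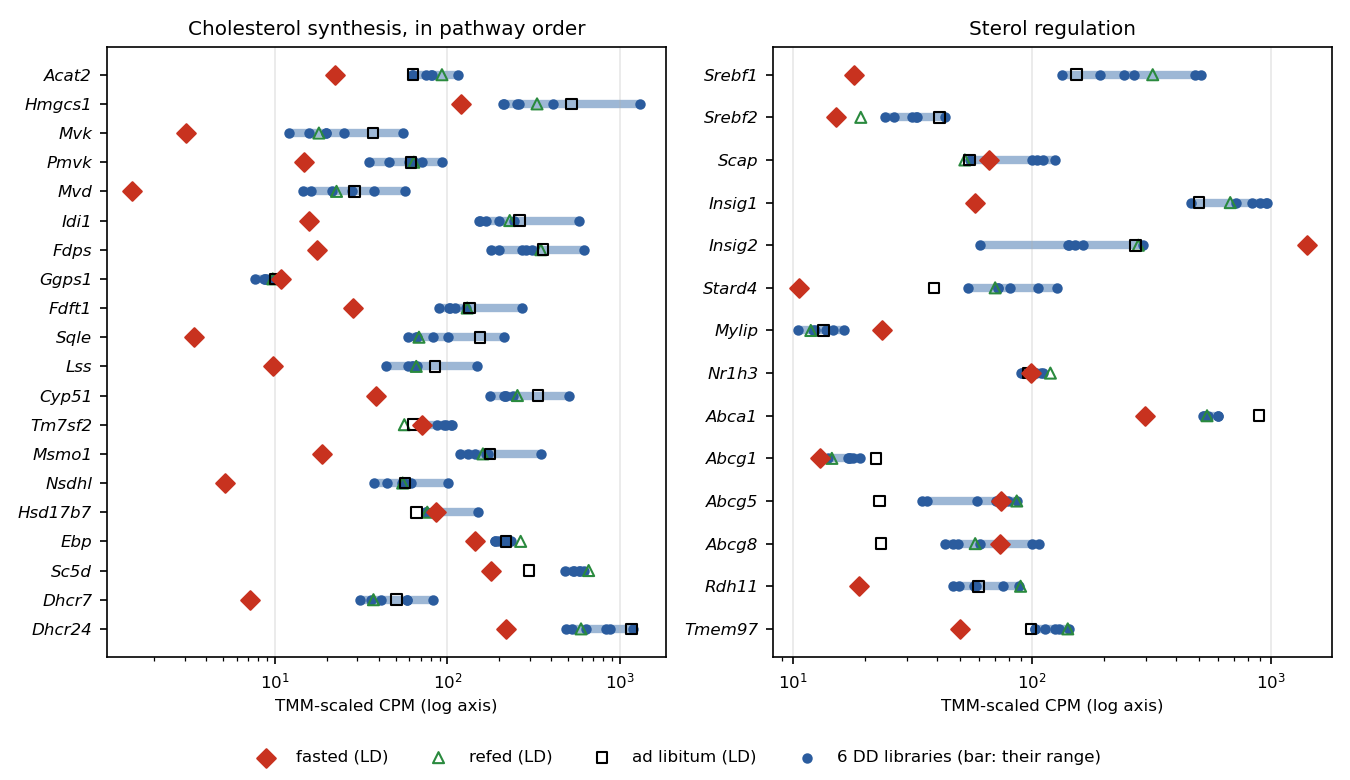
TMM-scaled CPM on a log axis for 20 cholesterol synthesis enzymes in pathway order (left) and 14 genes of sterol regulation (right), with the fasted library as a red diamond, the refed as a green triangle, the ad libitum as a black square and the 6 DD libraries as blue points over their range. The fasted value lies 2-fold or more left of the bar for 15 and 5 genes, and Insig2 is 2-fold right of it.

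For the promoters of these genes, both strands of the same windows were searched for 8 motifs. CCAAT was in 10 of the 11 cholesterol synthesis genes below that had a window (90.9%) and in 4 of 4 of the sterol regulators below (Insig1, Rdh11, Srebf1 and Tmem97), against 43.2% of all 9341 windows. Over all genes below the share was 56.5% and over all genes above 53.3%. Lists on the other side had high shares too, with 4 of 4 windows of the acyl-CoA thioesterases above, 5 of 7 of the PPARα targets (71.4%) and 7 of 10 of the genes of fatty acid uptake and lipid droplets (70%). The letters TCACNCCAC, 1 form of the sterol regulatory element, were in 0 of these 11 and 0 of these 4 windows and in 1.46% of all windows. A DR1 element of PPAR and RXR, searched as AGGNCA repeated after 1 base, was in 0 of the 107 windows of the genes above and in 0.364% of all windows. These letters may lie outside the windows. Only exact matches were searched, so elements that differ by a base inside the windows were missed. The counts of 0 therefore do not show that such elements were absent. The other motifs were CACGTG (15.9% of genes above, 10.9% below, 12% of all), TGACGTCA (2.8%, 2.04% and 3.46%), TTANGTAA (4.67%, 0.68% and 1.94%) and the ER stress element ERSE (0% above, 0% below, 0.193% of all). The stretches around the CCAAT match nearest the start are given for 6 enzymes and 2 regulators farthest along this group, 5′ to 3′ on the gene's strand, from RefSeq on GRCm38.p6, with CCAAT or its reverse complement ATTGG in capitals.
Mvd, chr8:122443423-122443474, minus strand: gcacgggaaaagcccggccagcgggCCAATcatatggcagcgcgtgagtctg
Idi1, chr13:8885567-8885605, plus strand: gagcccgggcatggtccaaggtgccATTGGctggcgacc
Lss, chr10:76531518-76531572, plus strand: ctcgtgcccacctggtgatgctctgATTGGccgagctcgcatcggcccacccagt
Cyp51, chr5:4104698-4104751, minus strand: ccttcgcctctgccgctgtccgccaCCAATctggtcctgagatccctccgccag
Msmo1, chr8:64733604-64733658, minus strand: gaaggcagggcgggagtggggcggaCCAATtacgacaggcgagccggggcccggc
Nsdhl, chrX:72918476-72918520, plus strand: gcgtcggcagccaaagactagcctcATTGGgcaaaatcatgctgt
Insig1, chr5:28071171-28071225, plus strand: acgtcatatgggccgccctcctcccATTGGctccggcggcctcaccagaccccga
Srebf1, chr11:60210472-60210526, minus strand: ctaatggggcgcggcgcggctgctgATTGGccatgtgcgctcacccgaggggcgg

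In fatty acid synthesis 6 of 21 genes were 2-fold below and 1 was above, against 1.64% and 1.16% of all genes. By any distance 15 of the 21 were below, 2 above and 4 inside. Without CT1 and CT17, 10 were below. Fasn, the fatty acid synthase, had 54.1 CPM in the fasted library, against 583, 799 and 2607 CPM in DD, 10.8-fold beyond the lowest. Thrsp (Spot 14), a lipogenic regulator, had 16.0 CPM in the fasted library and 109, 472 and 2463 CPM in DD. Mid1ip1, its partner, stood -2.39 beyond in log2 units, and Acly, which provides cytosolic acetyl-CoA, -1.92. All 4 peaked in DD at CT9 or CT13. Elovl5, an elongase of polyunsaturated fatty acids, was the exception above, with 1151 CPM in the fasted library and 193, 259 and 425 CPM in DD. Scd1, the stearoyl-CoA desaturase, was below by only -0.31, with 3358 CPM in the fasted library and 4166, 6840 and 13946 CPM in DD. Aacs, which activates acetoacetate for lipid synthesis and was on none of the lists, had 4.41 CPM in the fasted library, against 78.0, 98.9 and 216 CPM in DD.

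Further genes below came from several groups. Hsd3b5, a male-typical steroid dehydrogenase and the 1 gene below of 16 male- or female-typical genes, where 2 were above, had 11.7 CPM in the fasted library and 169, 238 and 527 CPM in DD. Selenbp2, a selenium-binding protein gene, had 74.4 CPM in the fasted library and 814, 934 and 1572 CPM in DD. Serpina9, a serine protease inhibitor gene, had 4 counts in the fasted library (0.0918 CPM) and 75 to 245 counts in DD (1.62, 3.0 and 4.65 CPM). These 3 were also low in the ad libitum library, at 62.6, 300.2 and 0.0969 CPM in the same order, whereas the refed library was inside the DD range for each. The retinoic acid hydroxylase Cyp26a1 was low in both as well, with 1.24 CPM in the fasted library, 2.46 CPM in the ad libitum library and 8.86, 15.3 and 37.1 CPM in DD. Among 23 conjugating and redox genes Gstm3, a glutathione transferase, and Pgd, of the pentose phosphate pathway, were below at -1.58 and -1.0. By any distance 4 of the 23 were above, 10 below and 9 inside. Cyp2c70, which makes the muricholic acids of mouse bile, had 136 CPM in the fasted library and 503, 704 and 1060 CPM in DD. Of 18 cell cycle genes 4 were below, Ccnd1 (cyclin D1) at -1.58, the replication helicase subunits Mcm5 and Mcm6 at -1.31 and -1.24 and Ccne1 at -1.15, the last from 17 counts in the fasted library. Over all genes 1.64% were 2-fold below. By any distance 3 of the 18 were above, 9 below and 6 inside. Gnat2, a cone transducin and 1 of the 6 genes that the study selected, had 17 counts in the fasted library (0.390 CPM), against 1.36, 2.24 and 5.27 CPM in DD, with a counting interval of -2.67 to -1.01 in log2 units. The study selected these 6 genes from these same libraries, partly by their change on fasting. Their place beyond the range is therefore not independent of that choice. Markers of other cell types stood beside these: the stellate cell collagen Col3a1 and the cholangiocyte factor Sox9 were below, at -1.29 and -1.08, while 0 of 10 Kupffer cell genes left the DD range. Of 8 stellate cell markers 1 was 2-fold below. By any distance 3 were above and 2 below, where 19.5% and 32.2% of all genes were. The summed share of the 8 was 0.0627% of counts in the fasted library and 0.0461% to 0.0602% in DD. Cholangiocyte markers took 0.00419% in the fasted library and 0.00524% to 0.0218% in DD. Of the 4 with enough counts 1 was 2-fold below, 2 were below by any distance and 2 were inside. Spp1 alone had 37.4 of the summed 42.6 CPM of the cholangiocyte list in the fasted library. The summed shares of Kupffer cell, sinusoidal endothelial, erythroid, neutrophil, lymphocyte and adipocyte markers in the fasted library were inside the DD range, and that of exocrine pancreas markers was at most 0.00016% in any of these libraries. The part of other cell types in the results was not tested.

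Of 26 P450 and receptor genes 3 were 2-fold above and 2 below, against 1.16% and 1.64% of all genes. By any distance 10 of them were above, 5 below and 11 inside. The P450 genes Cyp17a1, Cyp2c39 and Cyp2c38 stood 2.15, 2.23 and 1.27 above in log2 units. Cyp17a1, a steroid hydroxylase, had 76.5 CPM in the fasted library and 2.13, 6.59 and 17.2 CPM in DD, and the ad libitum library had 42.0 CPM. Kiss1, the kisspeptin gene, had 105 counts in the fasted library (2.41 CPM) and 4 to 12 counts in DD, and its exons overlap those of Golt1a on the same strand.

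Other groups had few or no genes 2-fold beyond the daily range, and the share outside it by less differed between them. Most heat shock (12 of 15), interferon-stimulated (12 of 17) and immediate early genes (9 of 12) were inside the range. Of 22 core clock genes and outputs, 0 were 2-fold beyond and 18 were inside it, in a range whose median DD peak-to-nadir ratio was 3.64 in log2 units, against 0.60 over all genes. Per1 had 11.3 CPM in the fasted library and 1.14, 7.57 and 23.4 CPM in DD. Cry2, a repressor of the clock, was the farthest, 0.35 below in log2 units. The endoplasmic reticulum chaperones and unfolded protein response gave 0 of 23 at 2-fold. By any distance 15 of these genes were below, against 32.2% of all genes, up to -0.81 for Sec61b and -0.81 for Hyou1. Without CT5, the lowest DD library for many of them, 2 were 2-fold below. Of 33 acute phase genes 27 were inside the range, and Steap4, an iron and copper reductase, and Saa4 were below, at -1.32 and -1.01. Of 20 autophagy and lysosome genes 7 were above by any distance, 8 below and 5 inside. Of 28 Krüppel-like and nuclear receptor genes 4 were above by any distance, 8 below and 16 inside. Over all genes 19.5% were above and 32.2% below by any distance, near the shares of the Krüppel-like and nuclear receptor list. In immediate early, heat shock, interferon-stimulated, autophagy and Krüppel-like or nuclear receptor genes 0 were 2-fold beyond, and the farthest were Jun at 0.56, Hspe1 at 0.33, Isg15 at -0.77, Bnip3 at 0.83 and Cebpd at 0.96. Ppara itself had 395 CPM in the fasted library, inside its DD range of 250.1 to 467 CPM. These counts depend on the DD libraries that form the range. Against CT1 alone, the label nearest to the end of the fast, 7 clock genes were 2-fold above, 16 endoplasmic reticulum genes and 25 acute phase genes were 2-fold below, and 546 of all genes were above and 802 below. Over all 29 lists, 60 of the 135 genes above and 46 of the 190 below were on at least 1.

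**Figure D4:**
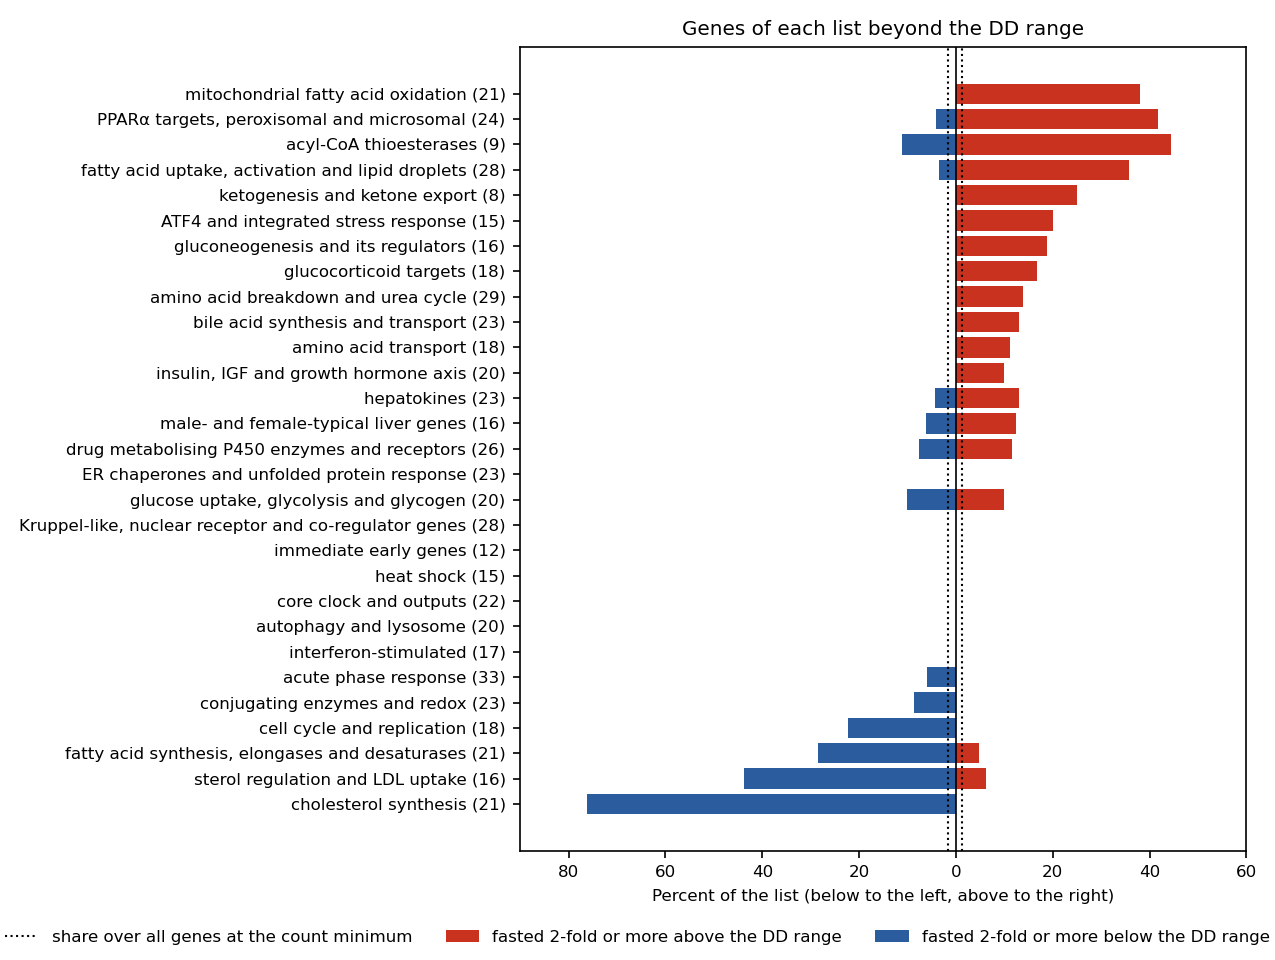
Percent of each list's genes with enough counts (their number in brackets) that lay 2-fold or more above the DD range (red, to the right) or below it (blue, to the left), with dotted lines at the shares over all genes, 1.16% and 1.64%. Lists of fatty acid oxidation and handling extend to the right and cholesterol synthesis, sterol regulation and fatty acid synthesis to the left, while the clock, heat shock and interferon lists have no bar.

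The refed and ad libitum libraries, which the rule did not use, share the lighting regime of the fasted mice. Under the same rule, each with its own count minimum, the refed library was 2-fold above the DD range at 27 genes (0.233%) and below at 26 (0.225%), and the ad libitum library above at 94 (0.81%) and below at 149 (1.28%). Of the 135 genes above, the refed library was inside the DD range for 70, 2-fold above for 9, above by less for 46 (34.1%), below by less for 9 and 2-fold below for 1. Over all 11593 genes it was inside for 54.7%, 2-fold above for 0.19% and above by less for 22.7%. The 9 genes were Cyp4a14 (2330 CPM), Cyp4a10 (1216 CPM), Cyp4a31, Kiss1, Apoa4, Retsat, Cyp2c39, Krt23 and Fabp2. For Apoa4, an apolipoprotein of triglyceride transport, the refed library was as high as the fasted one, with 1510 CPM in the fasted, 1536 CPM in the refed and 250 CPM in the ad libitum library, against 116 to 290 CPM in DD. The ad libitum library was inside the DD range for 54 of the 135, 2-fold above for 8, above by less for 19, 2-fold below for 7 and below by less for 47, against 56.3% of all genes inside, 0.647% 2-fold above and 20.2% above by less. Of the 190 genes below, the refed library was inside for 114 and 2-fold below for 5. The ad libitum library was inside for 84 of them and 2-fold below for 25. Over all genes the refed library was 2-fold below for 0.233% and the ad libitum library for 1.29%. These positions are taken against the same DD range that the rule used, so they are not independent of the rule.

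Set directly against the ad libitum library, the fasted value was at least 2-fold higher for 122 of the 135 genes above, or 90.4%, where 6.47% of all genes were, and at least 2-fold lower for 140 of the 190 below, or 73.7%, where 8.45% of all genes were. The fasted library thus stood 2-fold beyond all 8 other libraries for 104 genes above and 114 below. It was not beyond the ad libitum library for 4 genes above, Cdkn1a, Cxcl13, Jdp2 and Cerkl, and for 11 genes below. The fasted library alone was used on both sides, so these counts are not independent of the rule.

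**Figure D5:**
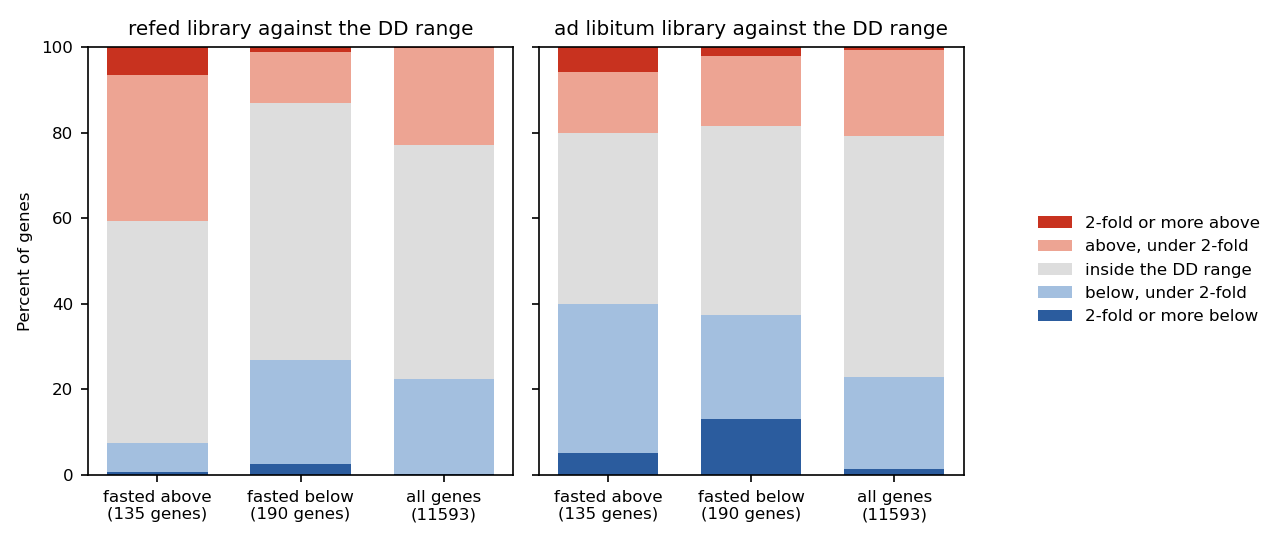
Percent of genes whose refed (left) or ad libitum (right) value lay above, inside or below the DD range, for the 135 genes above, the 190 genes below and all 11593 genes. Grey marks values inside the range, between 40% and 60% of the genes chosen, and the dark bands, 2-fold beyond, are 6.67% above for the refed library at the genes above and 13.2% below for the ad libitum library at the genes below.

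The DD range also sorted the genes that a comparison with the ad libitum library alone would name. Among 11142 genes with at least 100 counts in the fasted or the ad libitum library, 68 (0.61%) were at least 8-fold higher in the fasted library. Of these 38 were 2-fold above the DD range, 12 were above by less, 15 were inside and 3 were below it. Among the 110 genes (0.987%) at least 8-fold lower, 32 were 2-fold below the DD range, 29 were below by less, 48 were inside and 1 was above. Inside lay Saa1, Saa2, Lcn2, Orm2 and Mt1, acute phase genes that were high in the ad libitum library. Lcn2 had 11.8 CPM in the fasted and 1738 CPM in the ad libitum library. Its DD values were 1105 CPM at CT1, 1229 CPM at CT17 and 2.07 to 8.96 CPM in the other DD libraries. For Lcn2, Saa1, Saa2, Orm2 and Mt1 alike, the fasted value exceeded every DD library except CT1 and CT17. Their place inside the range therefore rests on CT1 and CT17. Cyp7a1, which sets the rate of bile acid synthesis, was among the 3 on the far side, with 70.7 CPM in the fasted library, 2.96 CPM in the ad libitum library and between 71.4 and 469.7 CPM in DD.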

How the data were processed

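PolyA+ RNA of pooled livers, 1 library per condition, was sequenced by Illumina in pairs of 150 bases. The submitters' processing notes name TopHat2 (2.0.13) and mm10. The counting program and strand setting are not named in the sources, and although the methods describe FPKM, the deposited files hold whole-number read counts per RefSeq transcript, not normalized by the authors. Of 27457 transcripts, 26390 were named through a RefSeq GRCm38.p6 table and 115 through GENCODE M21, and 952 (0.3463% to 0.8174% of counts in a library) were left out. For each of 20409 genes, 3734 of them with 2 or more transcripts, the transcript with the highest total over the 9 libraries was kept.

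Counts were scaled by TMM in edgeR (4.0.16, R 4.3.3), used for scaling only, over the 9 libraries. A library at 0 counts was set to 3 counts. Intervals (95%) cover counting error only. The fold rule was run on simulated counts that held counting error but no variation by time of day or between animals. That run checks the code only and gives no error rate for these data. Depth stands in the description of the libraries, and the alternatives tried were other scalings (among them DESeq2 1.42.0 size factors), count minimums, distances, summed transcripts and other sets of libraries as the range.

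The genes and lists (29 of pathways, 10 of cell type markers) were chosen with earlier results of these data known. Named genes were the 12 farthest on each side, up to 4 of each list on each side, 6 genes the study selected, 2 just inside and 2 just outside the threshold on each side, and 1 for each list with no gene beyond it. The others named (such as Cpt1a, Pck1, Scd1, Srebf2, Per1, Ppara, Dock6, Apoa4, Lcn2, Cyp7a1, the marker genes and the genes that complete a pathway) were chosen after their values were seen. Some genes are counted in the totals of the lists but are not reported here by name. Exon overlaps were read from GENCODE M21, which held 320 of the 325 genes, 106 of them overlapping another gene's exons. For 88 genes, Atf5, Crat, Pklr and Fen1 among them, an overlap was on the opposite strand. Whether reads of one gene were counted for the other was not tested. Promoter windows came from RefSeq GRCm38.p6. Tables were made with pandas 2.3.3 in Python 3.11.15, intervals with scipy 1.17.1, and plots with matplotlib 3.10.9.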

Additional observations from a re-analysis of the deposited data

How the results depend on the processing

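The numbers of genes above and below the DD range, 135 and 190, were within 1.5-fold under total counts (119 and 205), DESeq2 size factors (156 and 160), TMM over the 7 libraries (142 and 177), summed transcripts (137 and 189) and with the ad libitum library added to the range (122 and 140). Leaving out 1 DD library at a time gave 138 to 149 above and 200 to 220 below. Without scaling there were 90 above and 335 below, so genes above made 21.2% of the calls, against 41.5% with TMM. The median gene, among those with enough counts, stood between -0.36 (no scaling) and -0.04 (DESeq2) from its DD median in log2 units. A minimum of 1 count gave 677 and 406, a minimum of 1000 counts 95 and 114, any distance 2257 and 3728, and 4-fold 37 and 38. Without CT1 and CT17 there were 184 and 300, with the ad libitum and refed libraries added to the range 104 and 114, against CT1 alone 546 and 802, and against the median of the 6 DD libraries 345 and 631. Of 83 named genes beyond the range, 76 stayed 2-fold beyond under total counts, 79 with DESeq2, 81 with TMM over 7 libraries, 72 without scaling 71 with the ad libitum library added and 67 with the ad libitum and refed libraries added, where 2 fell inside the range in each case, and 0 changed side under any of the alternatives. Under total counts 2 acute phase genes were above. No paired analysis was possible because each condition has 1 library. Low depth limits the genes below most, 70 of which had under 100 counts in the fasted library. Of the 135 genes above, 20 had under 100 counts in every DD library and met the count minimum through the fasted library alone. The spread between animals is not measured.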

Other observations

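Of the 325 genes, 75 above and 144 below were on none of the lists, and those named here were chosen after their values were seen. Above the range, Vnn1, a pantetheinase, had 247 CPM in the fasted library and 10.6 to 31.8 CPM in DD. Retsat, a retinol saturase, had 1808 CPM in the fasted library, 734 CPM in the refed library and 169 to 351 CPM in DD. Rdh16, a retinol dehydrogenase, had 320.0 CPM in the fasted library and 23.7 to 139 CPM in DD. Crat, the carnitine acetyltransferase, had 139 CPM in the fasted library and 24.9 to 37.9 CPM in DD. Mat1a, which makes the methyl donor S-adenosylmethionine, had 10609 CPM in the fasted library and 1435 to 4104 CPM in DD. Rab30, a small GTPase of the Golgi, had 58.3 CPM in the fasted library and 4.36 to 7.72 CPM in DD, with 6.79 CPM in the refed and 8.08 CPM in the ad libitum library.

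Below the range, Fabp5, a fatty acid binding protein, had 11.0 CPM in the fasted library and 51.5 to 182 CPM in DD. Osgin1, an oxidative stress response gene, had 13.7 CPM in the fasted library and 64.3 to 201 CPM in DD. Mmab, an enzyme of cobalamin metabolism, had 6.86 CPM in the fasted library and 19.5 to 37.2 CPM in DD. The replication genes Fen1, Pole and Pold2, on none of the lists, had 2.82, 1.49 and 3.37 CPM in the fasted library, and their lowest DD values were 7.15, 3.47 and 7.17 CPM. Ern1, the gene of the endoplasmic reticulum stress sensor IRE1α, had 20.4 CPM in the fasted library and 45.0 to 71.0 CPM in DD. Lrp1, a receptor for remnant lipoproteins, had 609 CPM in the fasted library, 784 CPM in the refed library and 1258 to 1618 CPM in DD, so the refed library was below the DD range too.

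Some families were split. Gadd45b had 5.65 CPM in the fasted library and 0.764 to 1.73 CPM in DD, whereas Gadd45a had 1.03 CPM in the fasted library and 3.65 to 13.8 CPM in DD. The major urinary protein gene Mup19 had 1206 CPM in the fasted library and 23.6 to 577 CPM in DD, whereas Mup18 had 4.36 CPM in the fasted library, 297 CPM in the refed library, 0.814 CPM in the ad libitum library and 14.1 to 23.1 CPM in DD. Genes of this family are near-identical copies, so their reads may have been divided between them by the counting, and this was not tested.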
